A study of Drosophila melanogaster with 12 samples.

Results

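The genes described here are 36 genes of synaptic function and neuronal differentiation, named by symbol, whose expression was read in larval eye discs of Drosophila melanogaster. For each gene the brightest probe set over the 12 arrays was taken among those that the platform annotation assigns to 1 gene. In all, 33 of the 36 genes had such a probe set, 58 probe sets between them, out of 11983 genes and 18952 probe sets on the array. For comt and Eaat1 no probe set is named in the annotation used here, and the probe set of stnB also names stnA, so these 3 genes have no values. The samples were eye imaginal discs of wandering larvae of the third instar with the antennal part removed, 3 arrays in each of 4 groups. In the Runt group a UAS transgene for the transcription factor Runt was driven by ro-Gal4 in a w background. In the Runt G163R group ro-Gal4 drove a UAS transgene for Runt with that amino acid change, so both groups of this experiment carry a driver and a transgene. The sens mutant group was w and homozygous for both elements that the labels call sensDF2RES and sensE1. Its control group was w and heterozygous for both, so the controls carry the same elements in 1 copy and no array is free of them. ro-Gal4 takes its name from rough, a homeobox gene of the developing eye. The labels do not say how many discs were pooled or whether replicates came from separate crosses, so the spread behind the p-values is that of these samples and could be technical.

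Photoreceptor precursors leave the cell cycle in the eye disc, turn on neuronal genes and send axons into the brain while the larva still grows, and they make working synapses only in the pupa. A neuron first produces RNA-binding proteins, adhesion molecules and cytoskeletal proteins, and then the machinery that docks, fuses and recycles synaptic vesicles. Adult fly photoreceptors release histamine, and many other neurons use acetylcholine, glutamate or GABA. Runt is made in R7 and R8, the inner photoreceptors, and Senseless is needed for R8 to form.

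The deposited values are log2 expression values per probe set. Between 54.2% and 54.9% of all probe sets of an array lay at or below 3, and this dense low range is called the floor here, since differences inside it are compressed. Pearson correlations between arrays of 1 group were 0.9926 to 0.998, and at most 1 value was identical between any pair of arrays. In sens mutant arrays the sens probe set read 10.78, 10.36 and 10.61, against 8.96, 9.30 and 9.61 in controls. The sens transcript thus rose by 1.29 (log2, SE 0.173, adjusted p = 0.00112) in the arrays labelled mutant. The labels do not state whether the alleles remove transcript, and run has no named probe set, so neither targeted gene checks the genotypes and directions below are those of the labels. The R8 gene boss, the ligand that induces R7, read 2.27, 2.39 and 2.59 in sens mutant arrays, against 6.48, 6.51 and 6.38 in controls. Upper quartiles were 7.87, 8.01 and 8.07 in control replicates 1, 2 and 3, against 8.08 to 8.14 in the arrays of the other groups. Eye disc markers were high in all groups, with a mean log2 level over 10 genes, among them eya, so and gl, of 10.3 to 10.8 in every array.

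The list split into genes with signal and genes without it. Of the 33 genes, 7 stayed in the floor in all 12 arrays, and 26 exceeded it in at least 1 array. The 7 were Frq1, slo, Shab, Shal, Gad1, ChAT and VGlut. Gad1 makes GABA, ChAT makes acetylcholine and VGlut loads glutamate into vesicles, and their highest values in any array were 2.38, 2.54 and 2.22. VAChT, the vesicular acetylcholine transporter, whose gene shares its start with that of ChAT, exceeded 3 in 1 control array alone, at 3.17. The potassium channel genes slo, Shab and Shal had highest values of 2.20, 2.30 and 2.61. The sodium channel gene para exceeded 3 only in Runt replicate 3, at 3.20. Sh, the Shaker potassium channel, stood between 3.09 and 4.25. In all, 24 genes exceeded 3 in every array, and apart from Sh they were the genes of RNA binding, adhesion, cytoskeleton, release, fusion and recycling, Frq1 excepted.

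**Figure D1:**
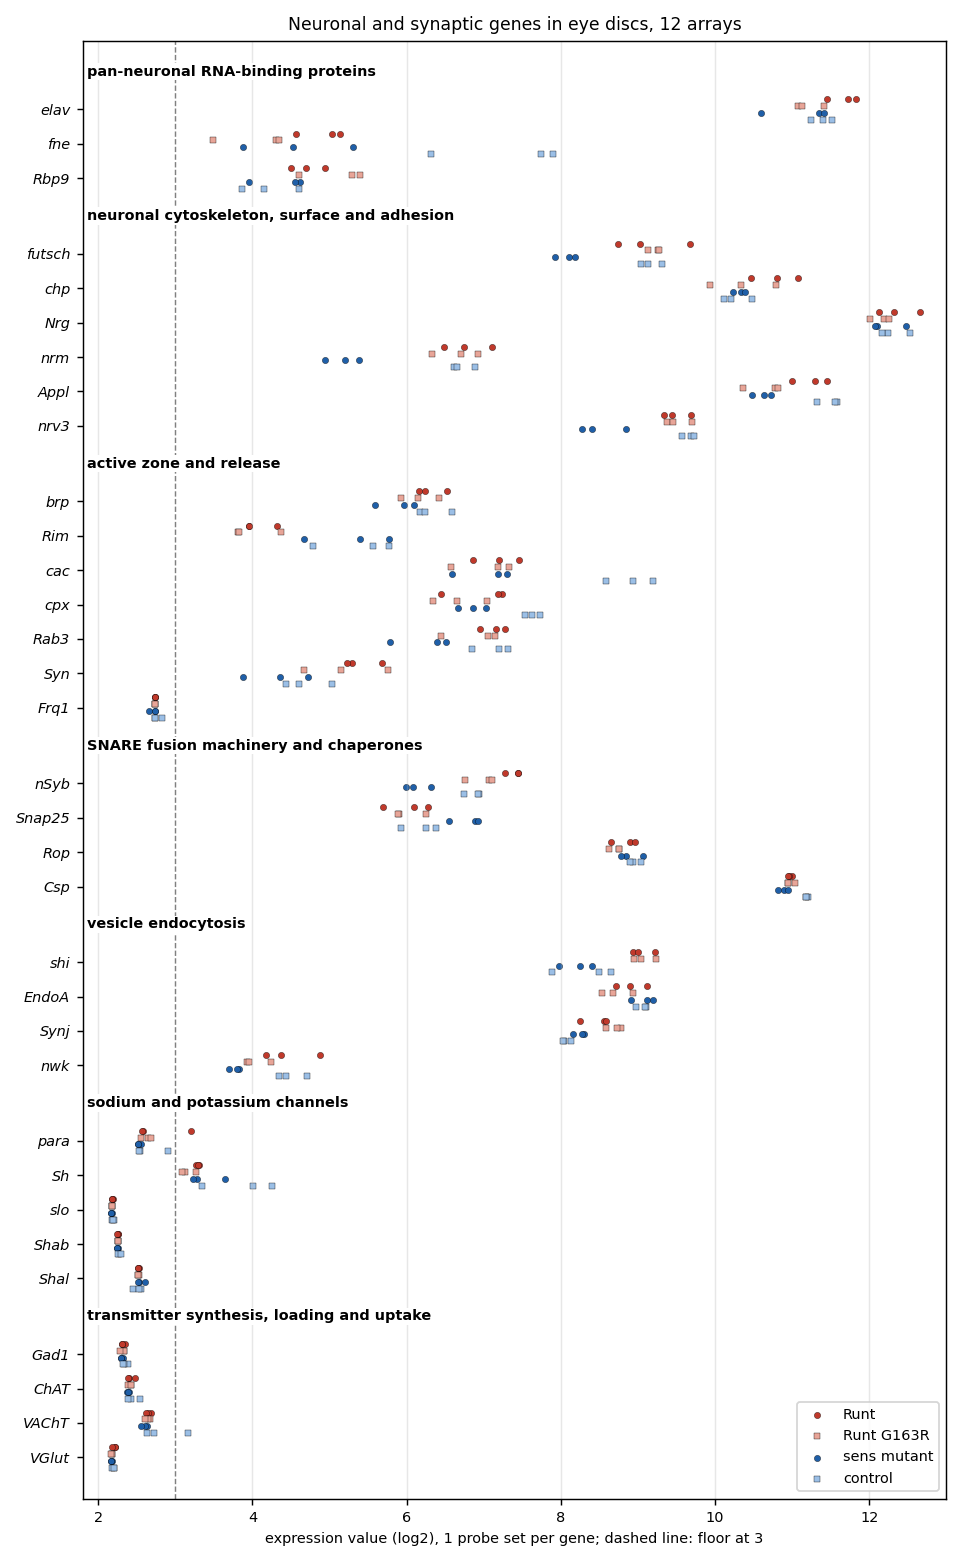
Log2 expression values of the 33 genes with a probe set, ordered by role, with 1 point per array in 4 groups (Runt, Runt G163R, sens mutant, control) and a dashed line at the floor of 3. Transmitter genes and most channel genes sit at the floor, and fne and cac show control points apart from all others.

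In the sens comparison, all listed genes that passed the test were lower in sens mutant arrays. Of 29 genes that passed a filter on dim probe sets, 11 fell, none rose and 18 did not pass the test. They were the neuronal RNA-binding gene fne, the cytoskeletal gene futsch, the surface protein genes nrm, Appl and nrv3, the release genes cac, cpx and Rab3, the fusion genes nSyb and Csp, and the endocytosis gene nwk. The test was limma on all 11470 probe sets kept, called at an adjusted p under 0.05. Over those probe sets 5.3% were called lower and 11.6% higher. Groups did not overlap for 14 of the 29 genes, 12 of them lower in the mutant, against 38.0% of all probe sets tested. Those were 4356 of 11470 probe sets, 1656 of them lower in the mutant. The median difference was -0.271 over the 29 genes tested and -0.132 over all 33, against 0.0306 over all probe sets tested and -0.0117 over all probe sets. The 29 tested genes did not enter through 1 group alone, since 28 of them exceeded the filter in all 12 arrays and ChAT in 7. The share of all calls that were higher, 68.7%, depended on the scaling. It was 50.4% after a second quantile normalization, with 11 of the genes lower, and 29.7% after subtracting the median of the tested probe sets, with 15 lower. That subtraction moved the median difference of all tested probe sets to -0.137. RNA came from eye discs with all their cell types, so fewer neurons and less transcript per neuron cannot be told apart in any of these values.

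Among the 3 genes of the ELAV family of RNA-binding proteins, which process transcripts in neurons, fne fell and the other two did not pass the test. Values of fne were 5.31, 3.88 and 4.53 in sens mutant arrays, against 7.74, 7.90 and 6.32 in controls. The groups did not overlap, with control replicate 3 nearest the mutants. This was a fall of 2.75 (log2, SE 0.472, adjusted p = 0.00407), or 6.71-fold, the largest among the 29 genes. elav, the standard marker of differentiated neurons, read 11.35, 11.41 and 10.59 in sens mutant arrays and 11.40, 11.51 and 11.25 in controls. Its groups overlapped and only mutant replicate 3 lay low (difference -0.27, SE 0.201, adjusted p = 0.383). Rbp9 averaged 4.38 ± 0.365 in sens mutant arrays and 4.21 ± 0.37 in controls (SD, n = 3 each), with a difference of 0.17 (adjusted p = 0.698).

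Of 6 genes of the neuronal cytoskeleton, surface and adhesion, 4 fell and 2 did not pass the test. futsch, a microtubule-associated protein of axons and synaptic boutons, read 8.11, 8.18 and 7.93 in sens mutant arrays, against 9.04, 9.31 and 9.13 in controls. It fell by 1.08 (SE 0.195, adjusted p = 0.00509), and all mutant arrays lay below every control array. nrm, an immunoglobulin superfamily adhesion gene, read 5.38, 5.20 and 4.94 in sens mutant arrays, against 6.61, 6.65 and 6.88 in controls, and fell by 1.54 (SE 0.206, adjusted p = 0.00112). Appl, the fly homologue of the amyloid precursor protein, read 10.48, 10.73 and 10.63 in sens mutant arrays, against 11.32, 11.58 and 11.56 in controls. It fell by 0.87 (SE 0.145, adjusted p = 0.00333). nrv3, a beta subunit of the neuronal sodium pump, read 8.28, 8.84 and 8.41 in sens mutant arrays, against 9.69, 9.57 and 9.73 in controls. Its fall of 1.15 (SE 0.149, adjusted p = 0.000912) had the smallest p of the 29 genes. For each of these 4 genes the groups did not overlap. chp, or chaoptin, a surface protein of photoreceptors, averaged 10.31 ± 0.0814 in sens mutant arrays and 10.27 ± 0.187 in controls (SD, n = 3 each), a difference of 0.04 (SE 0.208, adjusted p = 0.91). Nrg, neuroglian, averaged 12.21 ± 0.219 in sens mutant arrays and 12.31 ± 0.197 in controls by its brightest probe set (SD, n = 3 each), a difference of -0.09 (SE 0.155, adjusted p = 0.702).

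Of 7 genes of the active zone and of release control, 3 fell. cac, the calcium channel subunit that triggers release, read 7.30, 6.59 and 7.18 in sens mutant arrays, against 8.58, 8.94 and 9.20 in controls. It fell by 1.88 (SE 0.265, adjusted p = 0.00149), or 3.69-fold. Rab3, a small GTPase of synaptic vesicles, read 6.51, 5.78 and 6.39 in sens mutant arrays, against 7.20, 6.85 and 7.31 in controls, and fell by 0.90 (SE 0.239, adjusted p = 0.0303). cpx, complexin, a clamp of the fusion complex, read 6.86, 7.03 and 6.66 in sens mutant arrays, against 7.53, 7.73 and 7.63 in controls. It fell by 0.78 (SE 0.235), with an adjusted p of 0.048 close to the threshold. The groups of all 3 genes stood apart. The call of cpx was lost in 13 of 24 alternative settings, among them the omission of any 1 of the 6 arrays compared. That of Rab3 was lost in 6 of 25, among them without control replicate 1 or 3 or sens mutant replicate 2 or 3. brp, Bruchpilot, the scaffold of the active zone, read 5.97, 6.10 and 5.59 in sens mutant arrays and 6.17, 6.24 and 6.59 in controls. Its groups did not overlap, yet the difference of -0.45 (SE 0.197) did not pass the test (adjusted p = 0.156). Differences of the scaffold gene Rim, the vesicle phosphoprotein gene Syn and the calcium sensor gene Frq1, which lies in the floor, were -0.10, -0.37 and -0.06, with adjusted p values of 0.867, 0.428 and 0.271.

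Among fusion genes, nSyb and Csp fell, and Snap25 and Rop did not pass the test. nSyb, neuronal synaptobrevin, is the vesicle SNARE of neurons. It read 6.32, 5.99 and 6.08 in sens mutant arrays, against 6.94, 6.74 and 6.93 in controls, and fell by 0.74 (SE 0.137, adjusted p = 0.00598). Csp, cysteine string protein, a vesicle chaperone, read 10.89, 10.82 and 10.95 in sens mutant arrays, against 11.21, 11.18 and 11.18 in controls. This was the smallest of the 11 falls, at 0.30 (SE 0.0425, adjusted p = 0.00156), and the replicate SDs of 0.0664 in mutants and 0.0144 in controls were small as well. Snap25, a SNARE of the plasma membrane, read 6.88, 6.92 and 6.55 in sens mutant arrays, against 6.25, 5.92 and 6.38 in controls. Its groups did not overlap, and the difference of 0.60 (SE 0.198, adjusted p = 0.0669), the largest above 0 among the 29 genes, was called in 3 of 24 alternative settings, one of which subtracted each array's median. Rop, the Munc18 homologue, differed by -0.06 (SE 0.101, adjusted p = 0.714).

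Of the 4 endocytosis genes with values, nwk fell. nwk, Nervous wreck, an F-BAR protein of the synaptic terminal, read 3.83, 3.70 and 3.80 in sens mutant arrays, against 4.43, 4.35 and 4.71 in controls. The fall of 0.72 (SE 0.175, adjusted p = 0.02) lies near the floor, where differences are compressed. Its call was lost in 6 of 23 alternative settings, among them without control replicate 3 or any 1 of the sens mutant arrays. shi, the dynamin gene, EndoA, endophilin, and Synj, synaptojanin, are used by many cell types. Their differences were -0.13, 0.02 and 0.18, with adjusted p values of 0.666, 0.938 and 0.255. No sodium or potassium channel gene and no transmitter gene of the list passed the test, and of the 5 tested only Sh had an unadjusted p under 0.05. Sh averaged 3.38 ± 0.228 in sens mutant arrays and 3.87 ± 0.469 in controls (SD, n = 3 each), a difference of -0.49 (adjusted p = 0.124). For para, Shal and ChAT both group means lay in the floor, and for VAChT as well, so no difference could be read at these levels. slo, Shab, Gad1 and VGlut did not pass the filter and were not tested.

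**Figure D2:**
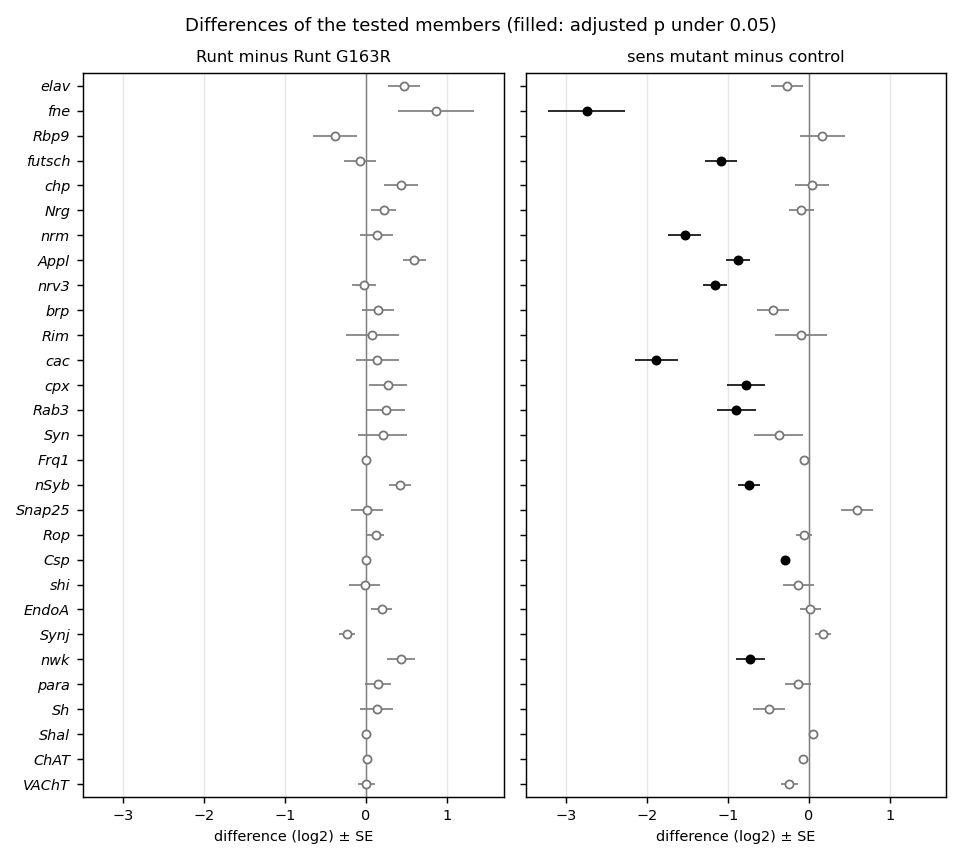
Difference in log2 value with its moderated SE for the 29 tested genes, Runt minus Runt G163R on the left and sens mutant minus control on the right, with filled points where the adjusted p was under 0.05. The 11 filled points are all in the sens panel and all below 0, between -0.30 for Csp and -2.75 for fne.

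Set beside the Runt experiment, the 11 genes that fell were of different kinds. The Runt and Runt G163R arrays come from another experiment and genotype, so these levels are a description and were not tested. For 5 genes, futsch, nrm, nrv3, Rab3 and nSyb, both Runt groups were nearer the controls, and the sens mutants were the group that stood low. The 6 arrays of the Runt experiment lay between 8.74 and 9.67 for futsch and between 6.33 and 7.11 for nrm, above every sens mutant array of these genes. For 4 genes, fne, cac, cpx and Csp, both Runt groups were nearer the sens mutants, and the controls were the group that stood high. fne lay between 3.49 and 5.14 in the 6 arrays of the Runt experiment, and cac between 6.58 and 7.46, below every control array of these genes. cpx and Csp were likewise below every control array, at 6.34 to 7.24 and at 10.95 to 11.03. For Appl and nwk the Runt mean was nearer the controls and the Runt G163R mean nearer the mutants.

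**Figure D3:**
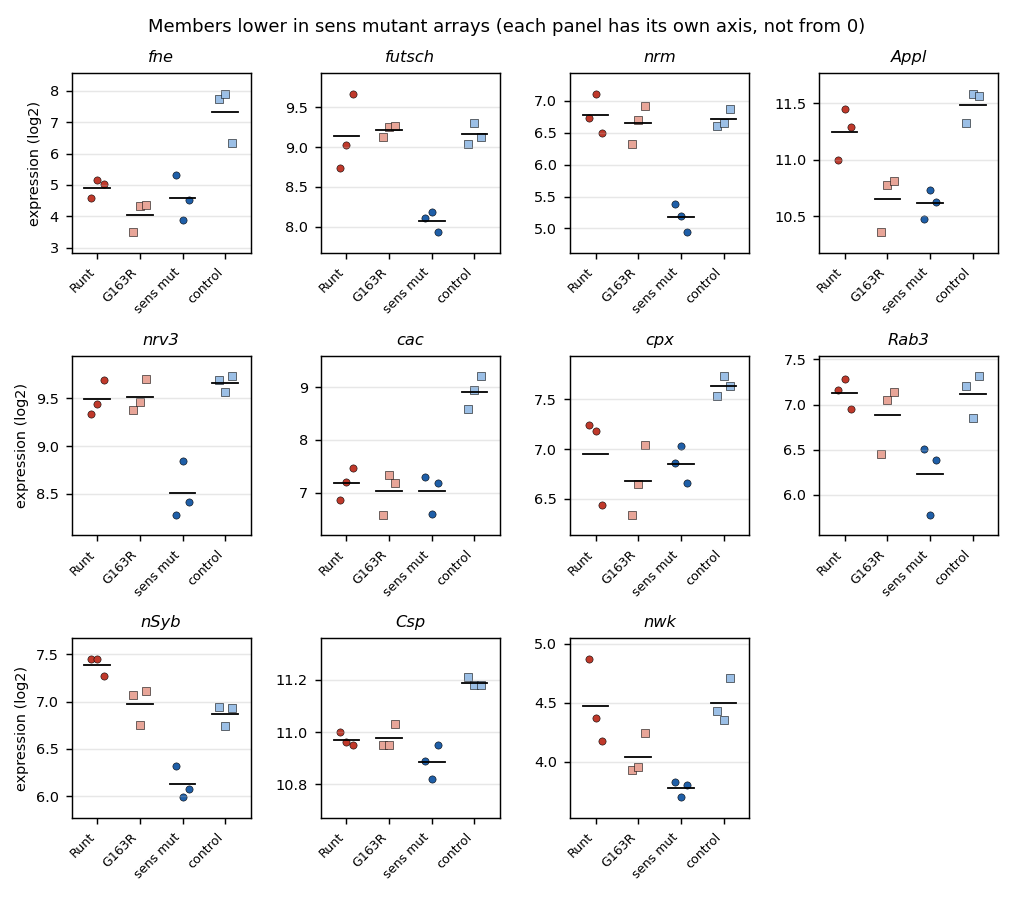
Log2 values of the 11 genes that fell in sens mutant arrays, 1 panel per gene, with a point for each array, a line at each group mean and an axis of its own that does not start at 0. In futsch, nrm and nrv3 the sens mutants are apart from the other 3 groups, whereas in fne, cac and Csp the controls lie above all other arrays.

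Markers of the eye disc and of other tissues moved in the same comparison, in which 11.6% of all probe sets tested were called higher and 5.3% lower. Of the 10 eye disc markers 3 rose, 1 fell and 6 did not pass the test. The differences were 0.89 for Optix (adjusted p = 0.000906), 0.50 for ey (adjusted p = 0.00509) and 0.36 for toy (adjusted p = 0.0056), with -0.47 for gl (adjusted p = 0.0127), which encodes a factor needed for photoreceptor development. In a list of 14 neuroblast and brain markers, 6 of 13 tested genes fell, none rose and 7 did not pass the test. Its mean log2 level was 6.15 to 6.18 in sens mutant arrays and 6.81 to 7.03 in controls, with ple and Poxn in the floor in all 12 arrays. Ddc, dopa decarboxylase, fell by 2.74 (SE 0.201, adjusted p = 3.11e-05), and the neuroblast genes mira, insc, ase and wor fell by 1.31, 1.06, 1.27 and 1.54. pros, a neuronal and neuroblast gene also used in R7, fell by 1.27. In a list of 8 antennal markers with values 4 fell and none rose, with differences of -1.84 for Dll, -1.54 for salm, -1.02 for al and -0.83 for ap. Its mean level was 7.19 to 7.44 in sens mutant arrays and 7.86 to 8.24 in controls, with no marker in the floor in every array. Unlike Dll, al and ap, salm was as high in the Runt experiment as in controls, with means of 10.1 in Runt and 9.88 in Runt G163R arrays, against 9.68. Whether the falls of these 4 genes have to do with antennal tissue was not tested. As for fne, cac, cpx and Csp, both Runt groups were nearer the mutants for mira, insc, wor, Ddc, Dll, al and ap. The same held for the glial markers alrm and Eaat2. It also held for the eye disc markers toy and Optix and the muscle marker sls, for which the controls stood low. The pattern was thus not particular to brain and antennal markers. Being nearer the mutants did not always mean being alike. For insc, Ddc, Dll and al every array of the Runt experiment lay below every sens mutant array. Ddc averaged 4.56 in Runt, 4.31 in Runt G163R, 6.76 in sens mutant and 9.505 in control arrays. Dll averaged 5.17, 5.33, 6.75 and 8.59 in the same order. For mira the 6 arrays of the Runt experiment lay between 6.22 and 6.78, against 6.42, 6.58 and 6.22 in sens mutant arrays and 7.54, 7.89 and 7.71 in controls. For salm and ase, as for futsch and nrm, both Runt groups were nearer the controls, and for pros the Runt mean was nearer the controls and the Runt G163R mean nearer the mutants. Both Runt groups were nearer the controls for ey, gl and wrapper as well, and for moody the Runt groups were nearer different means. The sens mutants stood low for ase, at 3.91, 4.01 and 3.91, against 5.26, 5.26 and 5.10 in controls. Glial markers moved both ways, with wrapper and moody higher and alrm and Eaat2 lower among 10 tested. That list had a mean level of 6.81 to 6.93 in sens mutant arrays and 6.72 to 6.77 in controls, with hoe1 in the floor in all arrays. Of 5 muscle markers 1 was higher, and of 8 haemocyte markers none was called by limma in the sens comparison, with 3 at an unadjusted p under 0.05. The haemocyte list averaged 3.53 to 3.97 in sens mutant arrays and 3.92 to 5.29 in controls, with 7.3 to 8.13 in Runt and 7.93 to 8.4 in Runt G163R arrays, so this level was higher in the Runt experiment. Whether RNA from brain or antennal cells, or from fewer R8 cells, has a part in the 11 falls was not tested.

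**Figure D4:**
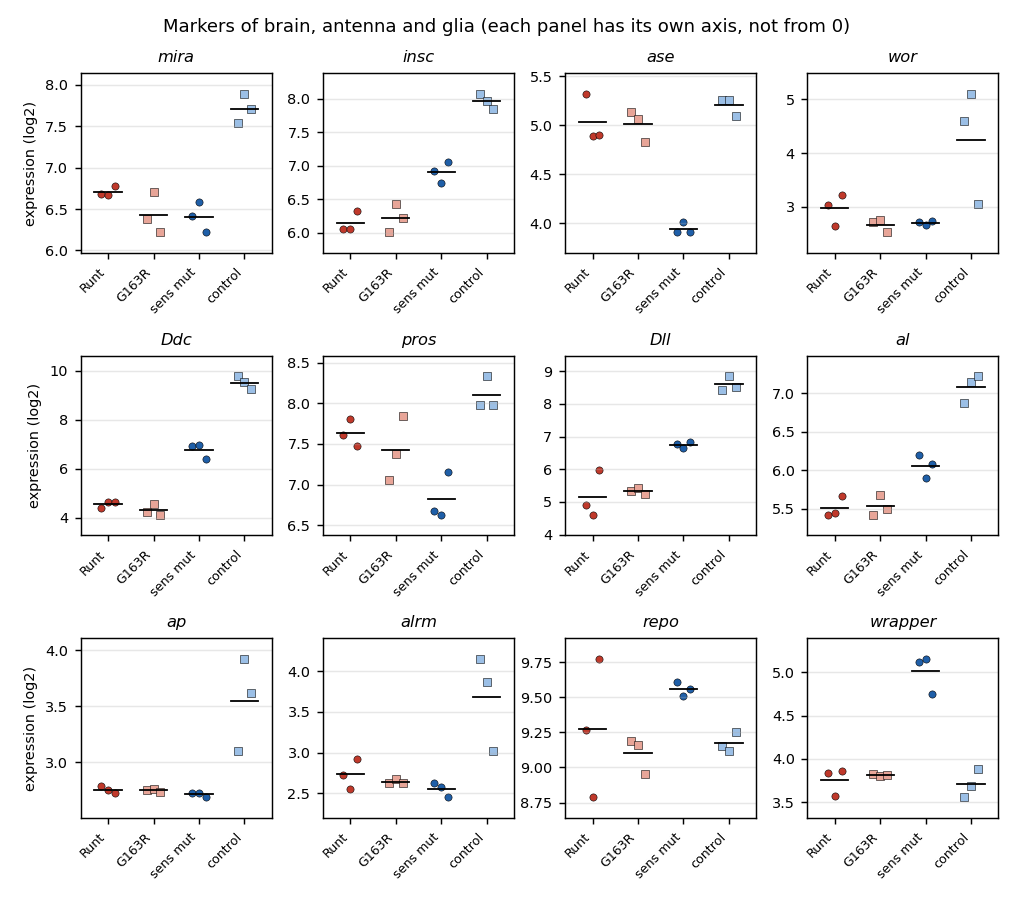
Log2 values of 12 marker genes of neuroblasts and brain, antenna and glia, with a point for each array, a line at each group mean and an axis per panel that does not start at 0. Controls lie above all other arrays for mira, insc, Ddc, pros, Dll, al, ap and alrm, and sens mutants lie below all others for ase.

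Where a gene had several probe sets, these did not always move together. The 3 probe sets of Nrg, all well above the floor, differed by -0.09, -0.28 and -1.20 between sens mutant and control arrays, in order of brightness. The dimmest was called (adjusted p = 0.00163), with means of 8.73 in sens mutant arrays and 9.93 in controls. Likewise shi had differences of -0.13, -0.03 and -1.10, and only its dimmest probe set was called (adjusted p = 0.0091), at 7.75 in sens mutant arrays and 8.85 in controls. Nrg and shi each produce several transcript isoforms, and the annotation used here does not say which of them each probe set reads. For nrm the brightest probe set fell, another differed by 0.20 (adjusted p = 0.763) and the last by -0.65 (adjusted p = 0.0728). A fit on the mean of each gene's probe sets called Nrg lower and left nrm uncalled. The 2 brightest probe sets of brp differed by -0.45 and -0.55 (adjusted p = 0.156 and 0.107), and the dimmer one of cpx by -0.35 (adjusted p = 0.486).

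**Figure D5:**
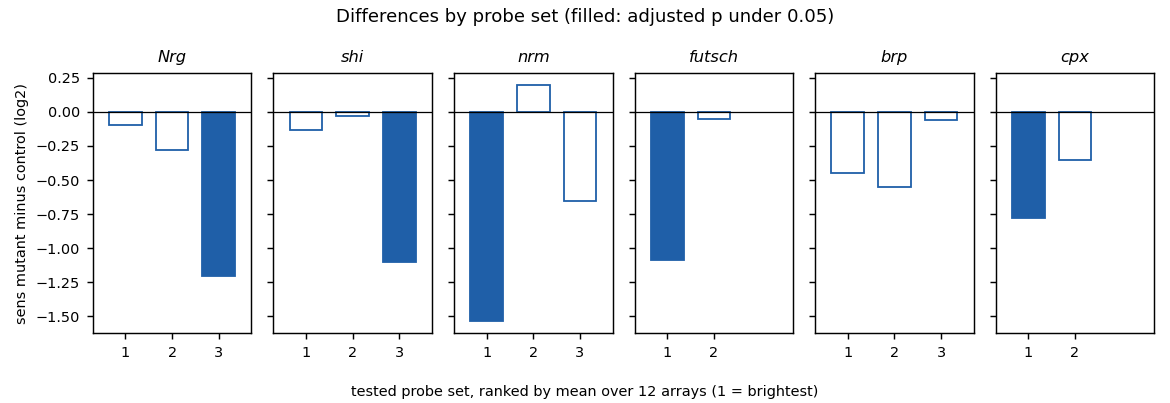
Difference in log2 value between sens mutant and control arrays for each tested probe set of 6 genes, ranked by brightness, with bars from 0 and filled where the adjusted p was under 0.05. In Nrg and shi only the dimmest of 3 bars is filled, at -1.20 and -1.10.

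The genes that fell lay on the X and on chromosomes 2 and 3. Of the genes tested, 4 of 10 fell on the X (fne, futsch, Appl and cac) and 2 of 5 on chromosome 2 (nrv3 and Rab3). On chromosome 3 there were 5 of 14, namely 4 of 7 on 3L (nrm, nSyb, Csp and nwk) and 1 of 7 on 3R (cpx). sens lies on 3L. Over all probe sets tested 5.3% were called lower, and this share was not taken by chromosome. Of 15 tested genes on other chromosomes 6 fell. The same 6 were called when all probe sets of chromosome 3 genes were left out of the fit. Each probe set is fitted by itself, so this changed only the shared estimate of the spread and the adjustment. It is thus no check on chromosome 3. Among genes of sex determination and dosage compensation none of 6 tested was called by limma in the sens comparison. There 0 had an unadjusted p under 0.05, with Sxl at -0.12 and msl-2 at -0.06. In the Runt comparison none was called either, and Sxl differed by 0.54 with an unadjusted limma p of 0.0344. roX1 and roX2 had no named probe set, so the balance of the sexes could not be read from them.

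In the Runt comparison no gene of the list passed the limma test, and neither did most of the array. The calls came to 0.0349% of the probe sets tested in the upward and 0.00872% in the downward direction, and 9.44% had groups that did not overlap, against 6 of the 29 genes, 5 of them higher and Synj lower. Of the 1083 probe sets without overlap 544 were lower in Runt arrays. At an unadjusted p under 0.05 there were 5 of the 29 genes and 729 of 11470 probe sets. The median difference was 0.132 over the 29 genes and 0.118 over all 33, against -0.000682 over all probe sets tested and 0.00176 over all probe sets. Of the 33 genes, 27 had a higher mean in Runt arrays and 6 a lower one, but 7 of them lie in the floor throughout, and 11653 of all 18769 probe sets had a higher mean in Runt arrays as well. Appl had the smallest p, with 11.00, 11.45 and 11.29 in Runt arrays, against 10.36, 10.78 and 10.81 in Runt G163R arrays. All Runt arrays lay above every Runt G163R array, and the difference was 0.60 (SE 0.145, adjusted p = 0.483). nSyb read 7.45, 7.45 and 7.27 in Runt arrays, against 7.07, 6.75 and 7.11 in Runt G163R arrays, without overlap and with a difference of 0.42 (SE 0.137, adjusted p = 0.688). elav read 11.45, 11.83 and 11.73 in Runt arrays, against 11.07, 11.13 and 11.41 in Runt G163R arrays, again without overlap (difference 0.47, SE 0.201, adjusted p = 0.769). fne had the largest difference, 0.86, with an SE of 0.472 and an adjusted p of 0.885. futsch, nrv3 and Csp differed by -0.07, -0.03 and -0.01, with SEs of 0.195, 0.149 and 0.0425. With array weights Appl and nSyb were called higher. Leaving out Runt replicate 3, which took the calls over all probe sets to 119, called none of the list.

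The comparisons themselves were set against each other in the same model, as Runt minus Runt G163R less sens mutant minus control. By this test 9 of the 29 genes differed between the comparisons, all with the higher value in the Runt comparison, where 3.35% of all probe sets were called in that direction and 6.74% in the other. They were fne, futsch, nrm, Appl, nrv3, cac, nSyb, Csp and nwk. The sizes ranged from 0.29 for Csp (SE 0.0601, adjusted p = 0.016) to 3.61 for fne (SE 0.668, adjusted p = 0.00998). For Appl the value was 1.47 (SE 0.205, adjusted p = 0.00286) and for nSyb 1.16 (SE 0.194, adjusted p = 0.00656). The Runt and sens differences in it were 0.60 and -0.87 for Appl and 0.42 and -0.74 for nSyb. Neither Runt difference passed the test by itself. For cac the value was 2.02 (adjusted p = 0.00998), with 0.14 in the Runt comparison and -1.88 in the sens comparison. futsch was the least secure, at 1.01 (SE 0.276, adjusted p = 0.0465), and its call was lost in 16 of 23 alternative settings, among them without any 1 of the 6 arrays of the sens experiment, any 1 Runt G163R array or Runt replicate 2. For cpx and Rab3 this test gave adjusted p values of 0.0737 and 0.0602, so they were not shown to differ between the comparisons.

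A longer list of 83 other neuronal and synaptic genes had calls in both directions in the sens comparison. Of 56 that were tested 10 fell, 6 rose and 40 did not pass, and their median difference was -0.0346. Over all probe sets tested 5.3% were called lower and 11.6% higher, so the rises were near the share of the array. By p the first 6 were wnd, Ank2, SK, sei, Rph and Cadps. Ank2, a giant ankyrin of the axonal and synaptic cytoskeleton, read 9.77, 9.23 and 9.34 in sens mutant arrays, against 10.71, 11.06 and 11.15 in controls, a fall of 1.53 (SE 0.194, adjusted p = 0.000862). Rph, rabphilin, a Rab effector of vesicles, fell by 1.21 (adjusted p = 0.00499) and Cadps, which primes dense-core vesicles for release, by 0.62 (adjusted p = 0.00636). The synaptic adhesion gene Nrx-1, neurexin, read 5.85, 6.43 and 5.80 in sens mutant arrays, against 6.74, 7.03 and 7.22 in controls, and fell by 0.97 (SE 0.212, adjusted p = 0.0127). unc-13, a vesicle priming factor, differed by -0.40 (SE 0.15, adjusted p = 0.101). SK, a calcium-activated potassium channel, rose by 2.36 (SE 0.337, adjusted p = 0.00156), at 10.10, 10.27 and 10.49 in sens mutant arrays, against 7.45, 7.72 and 8.61 in controls. sei, a potassium channel of the ERG type, rose by 0.68 (adjusted p = 0.00163). These channels had signal in eye discs, unlike most channel genes above. wnd, a kinase of axon injury responses on 3L, rose by 2.38 (SE 0.0579, adjusted p = 4.74e-09). Its controls stood low, at 8.68, 8.46 and 8.55, with all other arrays between 10.89 and 11.05. The other genes that rose, named here after their values were seen, were Sap47 by 1.16 (adjusted p = 0.008), Hdc by 1.42 (adjusted p = 0.0158) and Snap24 by 0.47 (adjusted p = 0.0196). Hdc makes histamine, a photoreceptor transmitter, and read 5.0, 4.19 and 3.25 in sens mutant arrays, against 2.72, 2.65 and 2.81 in controls, which lie in the floor. Syt1 and Syx1A had no named probe set. Between the comparisons 12 of the 56 differed, 8 with the higher and 4 with the lower value in the Runt comparison. Over all probe sets tested 3.35% were called higher and 6.74% lower by this test. Among the 56 the smallest p values were those of wnd at -2.36, Ank2 at 1.76, Cadps at 0.90, Rph at 1.53, the cadherin gene CadN at 1.46 and sei at -0.67. In the Runt comparison none of the 56 was called by limma, 8 had an unadjusted p under 0.05, and 1 was called, higher, without Runt replicate 3.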

How the data were processed

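RNA from 12 eye disc samples was hybridised to Affymetrix expression arrays. The deposited values are log2 expression per probe set, and the submitters' processing notes name MAS5, GCRMA and affy without saying which step made them. They were not normalized further here. No column of another sample was used. The 183 control probe sets were left out, and a probe set was tested where 3 or more of the 12 arrays exceeded their own 40th percentile, which kept 11470. limma 3.58.1 in R 4.3.3 fitted 4 group means to all 12 arrays (eBayes with intensity trend) and tested Runt against Runt G163R, the sens mutants against their controls, and how far these differences differ. Benjamini-Hochberg adjustment ran over all probe sets tested, and the fit was tested on simulated data. Genes were named by the platform annotation and placed on chromosomes by RefSeq, Release 6 plus ISO1 MT. The brightest probe set of a gene was used. The genes, the marker lists and the list of other neuronal genes were chosen with earlier results of these data known. All listed genes are accounted for. Of the other neuronal genes those with the 6 smallest p values per comparison among the called were named, with Syt1, Syx1A, unc-13 and Nrx-1. Sap47, Hdc and Snap24 were added after their values were seen, as were the falls of Eaat2, onecut, CadN, lap, stj and Syngr. Alternatives changed the filter, normalization, variance model, array weights, arrays, probe set and replicate block, and 3 were added after seeing the data (leaving out chromosome 3 genes, leaving out X genes, and subtracting the median of the tested probe sets). The number of arrays limits the precision.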

Additional observations from a re-analysis of the deposited data

How the results depend on the processing

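For genes called in the sens comparison or in the difference between comparisons, 239 and 187 values under an alternative kept direction and call, and 29 and 20 kept the direction but lost the call. One reversed, the second probe set of nrm at 0.20. Array weights gave 2 of the listed genes called in the Runt comparison (Appl and nSyb), 15 in the difference between comparisons (12 higher and 3 lower), 7 of the other neuronal genes in the Runt comparison and 466 of all probe sets there; the cause was not tested. Leaving out X chromosome genes left 7 listed genes in the sens comparison and 5 in the difference between comparisons, and leaving out chromosome 3 genes left 6 and 4, with fewer genes tested. Without chromosome 3 genes the other neuronal genes called in the sens comparison were 9 and all probe sets 909. In the Runt comparison over all probe sets limma called 0 with the 60th percentile filter (576 at an unadjusted p under 0.05), 1 with its 6 arrays alone, 1 with the replicate block and 3 without X genes. Leaving out 1 array gave 0 to 0 listed genes in the Runt comparison, 8 to 11 in the sens comparison and 8 to 10 in the difference between comparisons. For the other neuronal genes it gave 12 to 18 in the sens comparison and 0 to 1 in the Runt comparison, and over all probe sets 1220 (without sens mutant replicate 1) to 2009 and 4 to 119 (without Runt replicate 3). Correlations of the deviations of same-numbered arrays were 0.2558, -0.1208 and 0.06457 in the Runt experiment and -0.42, -0.06735 and 0.07559 in the sens experiment. Those of differently numbered arrays ran from -0.2072 to 0.1784 and from -0.3832 to 0.3939. With 3 arrays per group these values cannot settle whether the replicate numbers pair the samples, and the main fit used no pairing. With the replicate block 9 listed genes were called in the sens comparison, 6 in the difference between comparisons and 0 in the Runt comparison, with 14 and 0 of the other neuronal genes and 1564 of all probe sets in the sens comparison. Subtracting each array's median gave 10 listed genes lower in the sens comparison and Snap25 higher. Signal limits the 7 genes in the floor, for which no difference can be read.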
